A study of Mus musculus with 5 samples.

Results

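Glycolysis from glucose phosphate to pyruvate runs through enzymes that are among the most abundant transcripts of fast skeletal muscle. The enzymes downstream of hexokinase were followed here as 10 genes chosen by name: Gpi1, Pfkm, Aldoa, Tpi1, Gapdh, Pgk1, Pgam1, Pgam2, Eno3 and Pkm. Aldoa has 2 gene IDs in the deposited table and was kept as 2 entries, so that the enzymes make up 11 of 17015 table entries. RNA was sequenced from tibialis anterior (TA) muscle, a fast-twitch muscle of the lower hindlimb, of male mice aged 8 weeks. There were 3 libraries from WT control mice, which are Cre-negative littermates, and 2 libraries from mice labelled skmNrip1-/-. In the skmNrip1-/- mice, Cre driven by the myogenin promoter acts in the skeletal muscle lineage on Nrip1 alleles in which loxP sites flank exon 4, the exon that holds the coding sequence. Nrip1 encodes RIP140, a coregulator of nuclear receptors, and the comparison asks how its loss in skeletal muscle changes the muscle transcriptome.

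In the upper part of this pathway, sugar phosphates are rearranged, phosphorylated and split into triose phosphates at the cost of ATP. In the lower part, triose phosphate is oxidized and ATP is made as it is turned into pyruvate. Several steps have a muscle isozyme and isozymes used in other tissues, and fast fibers, which work in short bursts with little oxygen, hold far more of these enzymes than slow oxidative fibers.

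Values are FPKM, which are scaled to transcript length and library size, so levels of different genes can be set side by side. A gene was called when limma on log2(FPKM + 0.1) gave a Benjamini-Hochberg adjusted p of 0.05 or less and the fold change was at least 1.2. Negative log2 fold changes mean a lower value in the libraries labelled skmNrip1-/-. Over 12148 tested genes, 55 were called (0.453%), of which 45 were higher (0.37%) and 10 lower (0.0823%). After rescaling to TPM the split was 29 higher and 59 lower. Nrip1 itself went against its label. It was at 4.64, 7.69 and 6.55 FPKM in WT control and at 25.3 and 22.5 FPKM in the libraries labelled skmNrip1-/- (log2 fold change 1.94, SE 0.21, limma adjusted p = 0.0261). The call held without WT control replicate 1 or 2 and was lost without WT control replicate 3 or either skmNrip1-/- library (limma adjusted p from 0.142 to 0.204), with log2 fold changes from 1.74 to 2.09 over the 5 fits. This is a value over the whole gene, which does not separate exon 4 from the exons that stay, and every direction below therefore rests on the label of the libraries. Mitochondrially encoded transcripts took 45.4% to 50.7% of all FPKM in WT control and 58.6% and 60.9% in skmNrip1-/-. The FPKM sums ranged from 969144 to 1288040 per library, while the medians over genes were already aligned between libraries as deposited. The absolute depth is unknown. The depth relative to WT control replicate 1 was estimated to range from 0.819 to 1.09. The estimate used the lowest values above 0 of long genes with 1 transcript, scaled by length and taken as 1 fragment each. That assumption was not tested. In bulk muscle, fewer fibers of a type and less RNA per fiber cannot be told apart.

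No glycolytic enzyme was called in either direction, 0 of 11 entries, under the deposited scaling. The entries leaned to lower values all the same. The log2 fold change was below 0 for 10 of 11, and the exception was Pgam1. Before adjustment, 4 of 11 entries were lower at a limma p of 0.05 or less, namely the second Aldoa entry, Tpi1, Gapdh and Pkm, against 5.33% of all tested genes. In 8 of 11 entries both skmNrip1-/- libraries lay below all 3 WT control libraries, which was so for 14.4% of all tested genes (the opposite order held for 15.8% of genes and for 0 of 11 entries). The median log2 fold change of the entries was -0.33, and that of all tested genes was -0.00054. The second Aldoa entry, which is counted among the 4 and the 8, is not a measure of the main entry's transcripts. All 11 entries passed the minimum of 0.5 FPKM. The entries share the same 5 libraries and are not independent of each other. WT control replicate 1 was the highest library for 9 of 11 entries, and skmNrip1-/- replicate 2 was the lowest for 9 of 11. Without WT control replicate 1 the median was -0.26, and without skmNrip1-/- replicate 2 it was -0.25, with 10 of 11 entries below 0 both times.

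**Figure D1:**
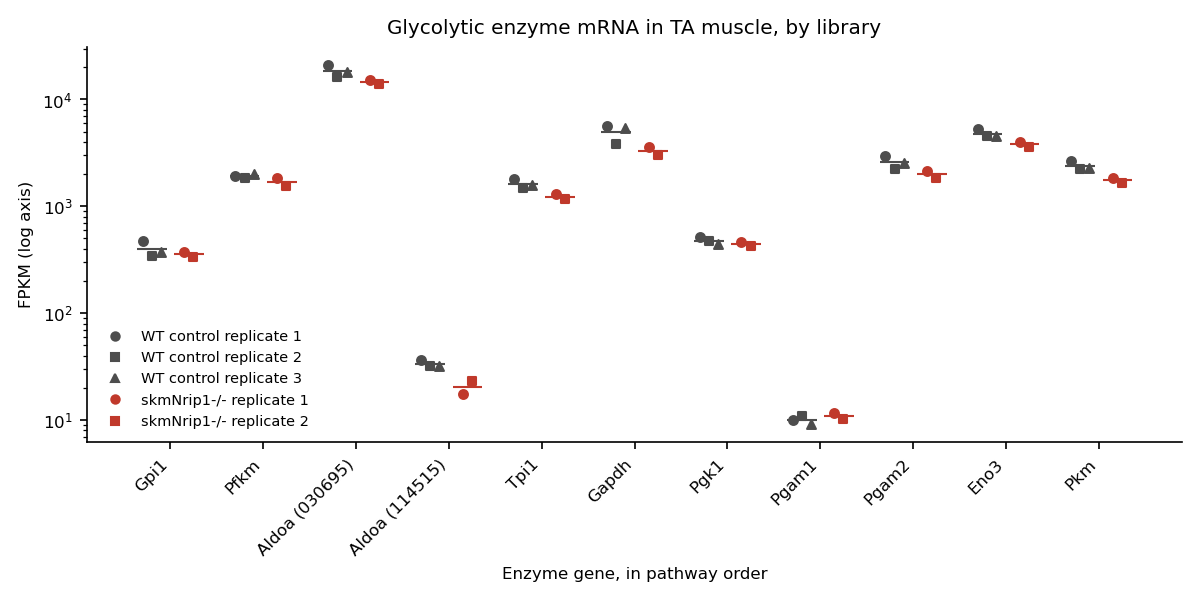
FPKM on a log axis for the 11 entries in pathway order, with 1 point per library and a bar at each group mean. Levels span from 10.03 FPKM for Pgam1 to 18396 FPKM for the main Aldoa entry in WT control, and the skmNrip1-/- points sit below the WT control points in 8 of 11 entries.

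The levels set the order in which these enzymes appear in WT control muscle. Aldoa stood first at 18396 ± 2465 FPKM (SD, n = 3) and was entry number 14 of the whole table by mean FPKM. Gapdh (4964 ± 999) and Eno3 (4786 ± 394) came next, and their ranges over the WT control libraries overlapped. Pgam2 (2572 ± 363) and Pkm (2399 ± 233) also overlapped, while Pfkm (1934 ± 76.0) and Tpi1 (1616 ± 150) were each apart from their neighbours. Pgk1 (479 ± 36.7) and Gpi1 (399 ± 69.5) overlapped at a lower level. The second Aldoa entry (33.7 ± 2.40) and Pgam1 (10.03 ± 0.839) were far below the rest.

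The upper part of the pathway opens with glucose 6-phosphate isomerase, which turns glucose phosphate into fructose phosphate. Its gene Gpi1 (ENSMUSG00000036427, chr7:34201330-34230336, minus strand, GRCm38) was at 478, 345 and 375 FPKM in WT control and at 375 and 336 FPKM in skmNrip1-/-. The groups overlapped, and the log2 fold change was -0.16 (SE 0.16, 95% interval -0.55 to 0.23, limma adjusted p = 0.784). Pfkm (ENSMUSG00000033065, chr15:98092589-98132451, plus strand) encodes muscle phosphofructokinase, which makes fructose bisphosphate in the committed and most tightly regulated step. It was at 1930, 1859 and 2011 FPKM in WT control and at 1845 and 1564 FPKM in skmNrip1-/-. The groups did not overlap, but skmNrip1-/- replicate 1 sat just below the lowest WT control library, and the log2 fold change was -0.19 (SE 0.14, limma adjusted p = 0.666).

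Aldolase splits fructose bisphosphate into triose phosphates, and Aldoa is its muscle gene. The main entry (ENSMUSG00000030695, chr7:126795234-126800751, minus strand) was at 21050, 16180 and 17957 FPKM in WT control and at 15308 and 13869 FPKM in skmNrip1-/-. Both skmNrip1-/- libraries lay below the lowest WT control library, with a log2 fold change of -0.33 (SE 0.20, limma adjusted p = 0.595). The second entry (ENSMUSG00000114515, chr7:126800790-126809108, minus strand) lies upstream of the first on the same strand, with its 3′ end next to the start of the first, has 2 annotated transcripts over 799 exonic bases, and shares no run of 31 bases with any other gene. The main entry is included in this, so the second entry is not a measure of the main entry's transcripts. Whether its own transcripts code for aldolase was not tested. The second entry was at 36.5, 32.3 and 32.3 FPKM in WT control and at 17.6 and 23.2 FPKM in skmNrip1-/-. This was the lowest log2 fold change of the 11 entries, -0.73 (SE 0.14, 95% interval -1.08 to -0.38), with a limma p of 0.00175 before and 0.129 after adjustment. After rescaling to TPM, which moved the median of all tested genes by -0.29, this entry was called at -1.03 (limma adjusted p = 0.0433).

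Triose phosphate isomerase interconverts the triose phosphates, so that both products of aldolase can go on. Its gene Tpi1 (ENSMUSG00000023456, chr6:124810586-124814296, minus strand) was at 1783, 1493 and 1572 FPKM in WT control and at 1292 and 1169 FPKM in skmNrip1-/-. The groups were apart, with a log2 fold change of -0.39 (SE 0.14) and a limma p of 0.0267 before and 0.344 after adjustment.

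The lower part begins with glyceraldehyde phosphate dehydrogenase, which oxidizes triose phosphate and makes NADH. Gapdh (ENSMUSG00000057666, chr6:125161715-125166467, minus strand), often used as a reference gene, was at 5613, 3814 and 5465 FPKM in WT control and at 3597 and 3030 FPKM in skmNrip1-/-. The WT control libraries were spread widely, and WT control replicate 2 sat close to skmNrip1-/- replicate 1, although the groups did not overlap. The log2 fold change was -0.57 (SE 0.22, 95% interval -1.08 to -0.051, limma adjusted p = 0.378), and 3.38% of all tested genes had a lower value. Phosphoglycerate kinase makes the first ATP of the lower part. Its X-linked gene Pgk1 (ENSMUSG00000062070, chrX:106187100-106203699, plus strand) was at 519, 470 and 447 FPKM in WT control and at 466 and 428 FPKM in skmNrip1-/-. The groups overlapped, and the log2 fold change of -0.097 (SE 0.12) had a 95% interval of -0.38 to 0.19 (limma adjusted p = 0.816).

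Phosphoglycerate mutase moves the phosphate group within phosphoglycerate and has a widely expressed form, Pgam1, and a muscle form, Pgam2. Pgam1 (ENSMUSG00000011752, chr19:41911923-41918660, plus strand) was at 10.1, 10.8 and 9.16 FPKM in WT control and at 11.7 and 10.3 FPKM in skmNrip1-/-. The groups overlapped (log2 fold change 0.13, SE 0.12, limma adjusted p = 0.751), and rescaling to TPM turned its sign to -0.16. Pgam2 (ENSMUSG00000020475, chr11:5801640-5803733, minus strand) was at 2956, 2234 and 2526 FPKM in WT control and at 2143 and 1831 FPKM in skmNrip1-/-. The groups were apart, with a log2 fold change of -0.37 (SE 0.17, limma adjusted p = 0.467).

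Enolase makes phosphoenolpyruvate, and Eno3 is the muscle form. Eno3 (ENSMUSG00000060600, chr11:70657202-70662513, plus strand) was at 5240, 4579 and 4540 FPKM in WT control and at 4029 and 3606 FPKM in skmNrip1-/-. The skmNrip1-/- libraries were the lowest of the 5, with a log2 fold change of -0.33 (SE 0.15, limma adjusted p = 0.478). Pyruvate kinase closes the pathway, making ATP and pyruvate. Pkm (ENSMUSG00000032294, chr9:59656368-59679375, plus strand) was at 2667, 2245 and 2285 FPKM in WT control and at 1859 and 1658 FPKM in skmNrip1-/-. The groups were well apart, and the log2 fold change was -0.45 (SE 0.15, 95% interval -0.80 to -0.098), with a limma p of 0.0196 before and 0.309 after adjustment. The alternatively spliced muscle and proliferation forms of pyruvate kinase share this gene and cannot be told apart in gene-level FPKM.

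Related sequences elsewhere in the genome bear on some of these values. Of the 31-base words in the transcripts of each gene, 54.7% were shared with transcripts of other genes for Pgk1, 37.1% for Pgam1, 34.7% for Pkm, 28.1% for Gapdh and 21.6% for Gpi1. The share was 17.0% for the main Aldoa entry, 10.5% for Tpi1 and 9.35% for Pfkm, and it was 0 for Pgam2, Eno3 and the second Aldoa entry. Salmon divides reads that fit several transcripts by estimation, so by this share Pgk1, Pgam1, Pkm and Gapdh are the less certain levels. Of the 6 genes that share words with Pgk1, 0 are in the deposited table, against 3 for Pgam1, 3 for Pkm and 105 for Gapdh. The effect of shared words on the levels was not tested. Of the processed copies, Pgam1-ps2, the gene that shares most words with Pgam1, had values of 3.56 and 1.58 FPKM in skmNrip1-/- and was listed at 0 in WT control replicates 1, 2 and 3. It was called higher (limma adjusted p = 0.0176), but not with a pseudocount of 0.01 (limma adjusted p = 0.113) and in only 2 of the 5 fits that left out a library. Its part in the value of Pgam1 was not tested.

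Promoter sequences are shown for the entry with the highest level and for the mutase pair, whose levels lie far apart. They are from RefSeq (GRCm38.p6), each the 250 bases before an annotated start, 5′ to 3′ on the gene's strand. Shown are a promoter of Aldoa (chr7:126799179-126799428, minus strand), the most abundant entry, and those of the mutase pair, Pgam1 (chr19:41911621-41911870, plus strand) and Pgam2 (chr11:5803797-5804046, minus strand). Capitals mark ACGTG, a form of the core of the hypoxia response element, or GGGCGG, the GC box. Each was searched on both strands, so that CACGT is a match on the other strand. GCGTG, another form of that core, was not searched, and the Pgam1 promoter holds gcgtg.
Aldoa: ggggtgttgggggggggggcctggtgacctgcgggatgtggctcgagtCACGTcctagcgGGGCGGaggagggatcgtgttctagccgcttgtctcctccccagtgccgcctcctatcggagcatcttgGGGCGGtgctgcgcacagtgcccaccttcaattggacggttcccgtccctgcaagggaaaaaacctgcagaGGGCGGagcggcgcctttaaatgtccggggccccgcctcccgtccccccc
Pgam1: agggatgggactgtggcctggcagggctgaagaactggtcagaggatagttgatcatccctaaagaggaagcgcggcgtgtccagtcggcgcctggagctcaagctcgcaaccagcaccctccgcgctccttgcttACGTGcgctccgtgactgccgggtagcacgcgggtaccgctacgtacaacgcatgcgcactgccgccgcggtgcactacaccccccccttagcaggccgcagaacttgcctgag
Pgam2: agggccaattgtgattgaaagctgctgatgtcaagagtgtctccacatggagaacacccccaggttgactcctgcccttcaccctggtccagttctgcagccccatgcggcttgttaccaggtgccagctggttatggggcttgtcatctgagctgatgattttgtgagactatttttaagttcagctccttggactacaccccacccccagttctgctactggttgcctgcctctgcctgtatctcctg
The Aldoa promoter has 67.6% G and C, with ACGTG on the other strand at -202 and GGGCGG at -190, -121 and -50, counted from the base before the start as -1. The Pgam1 promoter has 64% G and C and ACGTG at -114. The Pgam2 promoter has 53.2% G and C and holds neither word. All 10 genes had an entry, with 16 promoters in all, and their median G and C content was 57.8% against 52.4% over 32851 promoters. ACGTG was in 7 of the 16 promoters, of Aldoa, Pfkm, Pgam1, Pgk1 and Pkm, and in 16.6% of all promoters. GGGCGG was in 6 of the 16, of Aldoa, Gpi1, Pgk1, Pkm and Tpi1, and in 32.7% of all. AAGGTCA, a binding word of estrogen-related receptors, was in 0 of the 16 and in 4.08% of all. CTA and TAG with 4 bases of any kind between them, a form of the MEF2 site, were also in 0 of the 16, against 3.2% of all. Sites that end in TAA were not searched, and the Pgam2 promoter above holds ctatttttaa. TATAAA, a form of the TATA box, was in 0 of the 16, against 12.4% of all. Other forms of the TATA box were not searched, and the Tpi1 promoter holds tatataa. Several promoters of 1 gene overlap, and a match in these windows is only a match of letters.

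Summed over the 11 entries, the pathway was at 42282, 33262 and 37219 FPKM in WT control and at 30943 and 27525 FPKM in skmNrip1-/-, a ratio of group means of 0.778. No test was made of this sum. The same sum was 3.69%, 3.23% and 3.84% of all FPKM in WT control and 2.40% and 2.14% in skmNrip1-/-. As a share of nuclear-encoded FPKM, which leaves the mitochondrial transcripts out, it was 7.0%, 6.54% and 7.03% against 5.80% and 5.47%. The groups did not overlap on any of these scales. The median log2 fold change of the entries was -0.63 on TPM and -0.25 after rescaling to the nuclear FPKM sum, where the medians of all tested genes were -0.29 and 0.074. Such rescaling multiplies every gene of a library by the same factor, so it leaves the distance of the entries from all genes nearly as it was.

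**Figure D2:**
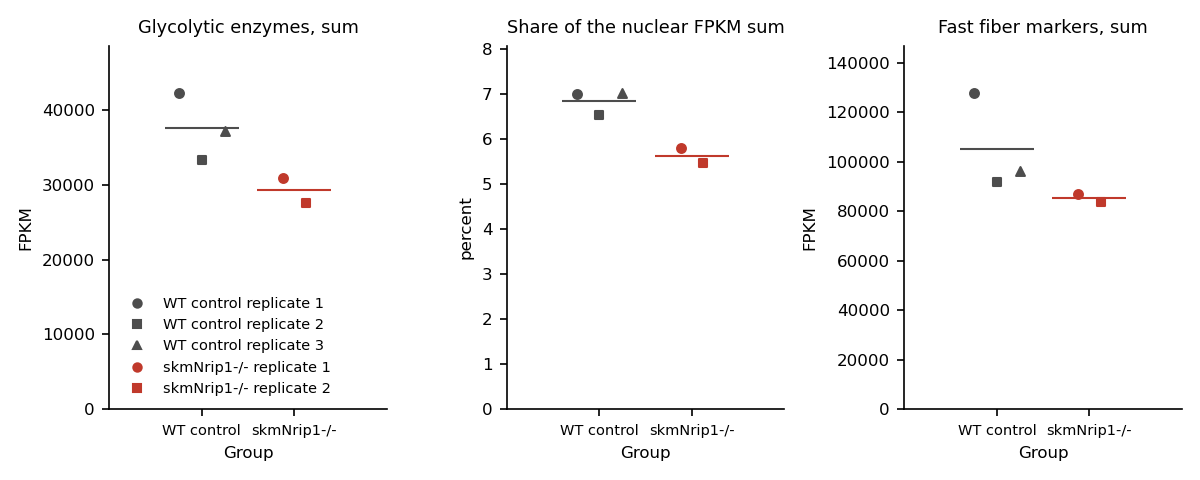
Summed FPKM of the 11 glycolytic entries, their share of nuclear-encoded FPKM in percent, and summed FPKM of 12 fast fiber markers, with 1 point per library and a bar at each group mean. The skmNrip1-/- points lie below the WT control points in all 3 panels, and WT control replicate 1 stands highest in both sums.

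The parts of Aldoa and Eno3 in the sum were close to constant, while that of Gapdh ranged from 11.5% to 14.7% over the WT control libraries. Aldoa took 48.9% of the sum in WT control and 49.9% in skmNrip1-/-, with overlapping groups. Gapdh took 13.1% and 11.3%, also overlapping, and Eno3 12.8% and 13.1%. Pkm took a smaller part in both skmNrip1-/- libraries (6.01% and 6.02%) than in any WT control library (6.14% to 6.75%). Pfkm took a larger part (5.96% and 5.68% against 4.56% to 5.59%), and the parts of Gpi1, Pgk1 and Pgam1 were also larger in both skmNrip1-/- libraries. Along the pathway, Eno3 over Pkm was 1.96, 2.04 and 1.99 in WT control and 2.17 and 2.18 in skmNrip1-/-. Tpi1 over Gpi1 was 3.73, 4.32 and 4.20 against 3.44 and 3.48, again with no overlap. Gapdh over Pgk1 varied more in WT control (10.8, 8.11 and 12.2) and was at 7.72 and 7.08 in skmNrip1-/-. These ratios were not tested.

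The other isozymes of the same steps were at low levels. Of 12 entries, 5 passed the minimum of 0.5 FPKM, 3 of these were above 0, and their median log2 fold change was 0.13. At each step with several isozymes, Pfkm, Aldoa, Pgam2, Eno3 or Pkm gave at least 97.2% of the mean FPKM in either group. Eno1, the widely expressed enolase (ENSMUSG00000063524), was called higher. It was at 65.5, 64.2 and 59.3 FPKM in WT control and at 114 and 103 FPKM in skmNrip1-/-. The groups were far apart, with a log2 fold change of 0.78 (SE 0.11, 95% interval 0.52 to 1.03, limma adjusted p = 0.048). The call was close to the threshold. It was lost on TPM and whichever library was left out, with limma adjusted p from 0.0773 to 0.403 and log2 fold changes from 0.70 to 0.85. Eno1 made up 1.3% of enolase FPKM in WT control and 2.75% in skmNrip1-/-, and it shares 28.5% of its 31-base words with copies such as Eno1b. The lowest of the other isozymes was Pfkp, a phosphofructokinase of platelets and other tissues, at 1.84, 1.74 and 1.43 FPKM against 1.3 and 1.25 FPKM (log2 fold change -0.36, SE 0.18, limma adjusted p = 0.505).

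Ratios within a library set each muscle form against its partner. Eno3 over Eno1 was 80.0, 71.3 and 76.6 in WT control and 35.5 and 35.2 in skmNrip1-/-. Pgam2 over Pgam1 was 293, 206 and 276 in WT control and 184 and 177 in skmNrip1-/-, with a much wider spread among the WT control libraries. Next to the pathway, Ldha over Ldhb, the muscle and the heart subunit of lactate dehydrogenase, was 24.9, 18.2 and 23.7 against 7.89 and 8.16. The groups were apart in all 3 ratios, which were not tested.

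**Figure D3:**
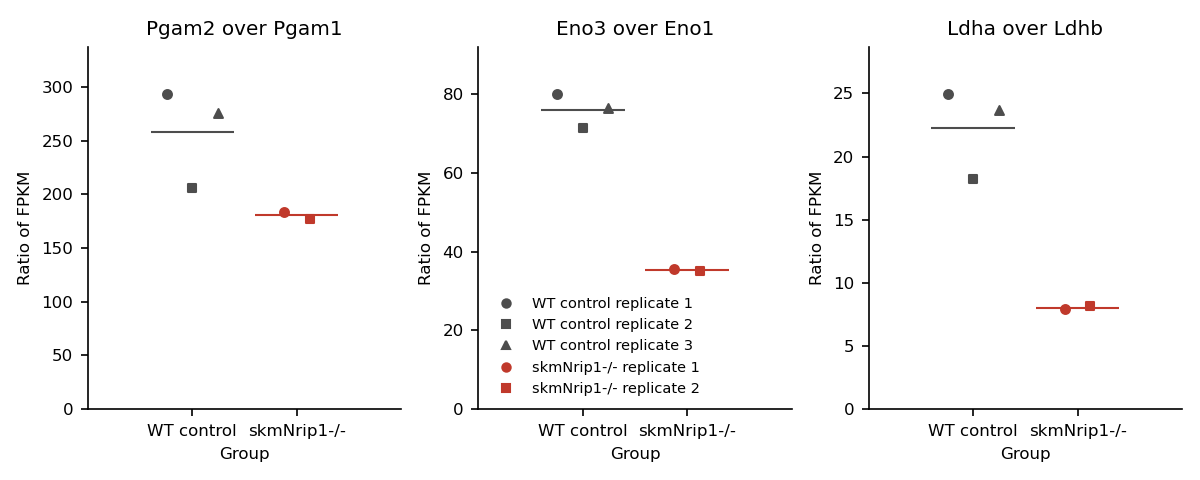
FPKM ratios of Pgam2 over Pgam1, Eno3 over Eno1 and Ldha over Ldhb in each library, with a bar at each group mean. The skmNrip1-/- libraries lie below every WT control library in each panel, from 293, 206 and 276 to 184 and 177 for Pgam2 over Pgam1 and from about 76 to about 35 for Eno3 over Eno1.

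The regulators and bypass enzymes, which include the Pfkfb genes, whose proteins make and remove an activator of phosphofructokinase, and the fructose bisphosphatases, which reverse its step, gave no call by limma among 9 tested genes, with 2 higher and 0 lower at an unadjusted p of 0.05. The highest was Pfkfb1, at 35.1, 40.9 and 32.6 FPKM in WT control and at 52.4 and 48.2 FPKM in skmNrip1-/- (log2 fold change 0.48, SE 0.13, limma adjusted p = 0.241). The lowest was Pfkfb4, at 26.2, 19.8 and 21.0 FPKM against 17.6 and 18.4 FPKM (log2 fold change -0.30, SE 0.14, limma adjusted p = 0.478). Their median log2 fold change was -0.10. Of all 12148 tested genes, 798 were higher and 647 lower at a limma p of 0.05 or less before adjustment.

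At the steps that feed and drain the pathway, 2 of 18 tested genes were called, both higher, and the median log2 fold change was 0.14. Hk1, a hexokinase found in most tissues, was at 2.59, 2.67 and 2.57 FPKM in WT control and at 5.19 and 6.56 FPKM in skmNrip1-/- (log2 fold change 1.13, SE 0.14, limma adjusted p = 0.0394). Ldhb was at 89.7, 106 and 86.2 FPKM in WT control and at 214 and 184 FPKM in skmNrip1-/- (log2 fold change 1.09, SE 0.13, limma adjusted p = 0.0376). Leaving out 1 library ended the call of Hk1 each time and that of Ldhb in all cases but that without WT control replicate 2, and on TPM neither was called. Pgm5, a relative of phosphoglucomutase found at muscle adhesion sites, had the highest value of the 18, at 3.64, 5.49 and 4.61 FPKM against 10.4 and 11.7 FPKM (log2 fold change 1.26, limma adjusted p = 0.0606). It was called with robust eBayes, a minimum of 1 FPKM or a pseudocount of 1 (limma adjusted p from 0.0462 to 0.0479). The lowest was Slc16a3, the lactate exporter MCT4 of fast fibers, at 330, 321 and 358 FPKM against 253 and 191 FPKM (log2 fold change -0.61, SE 0.15, limma adjusted p = 0.197).

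**Figure D4:**
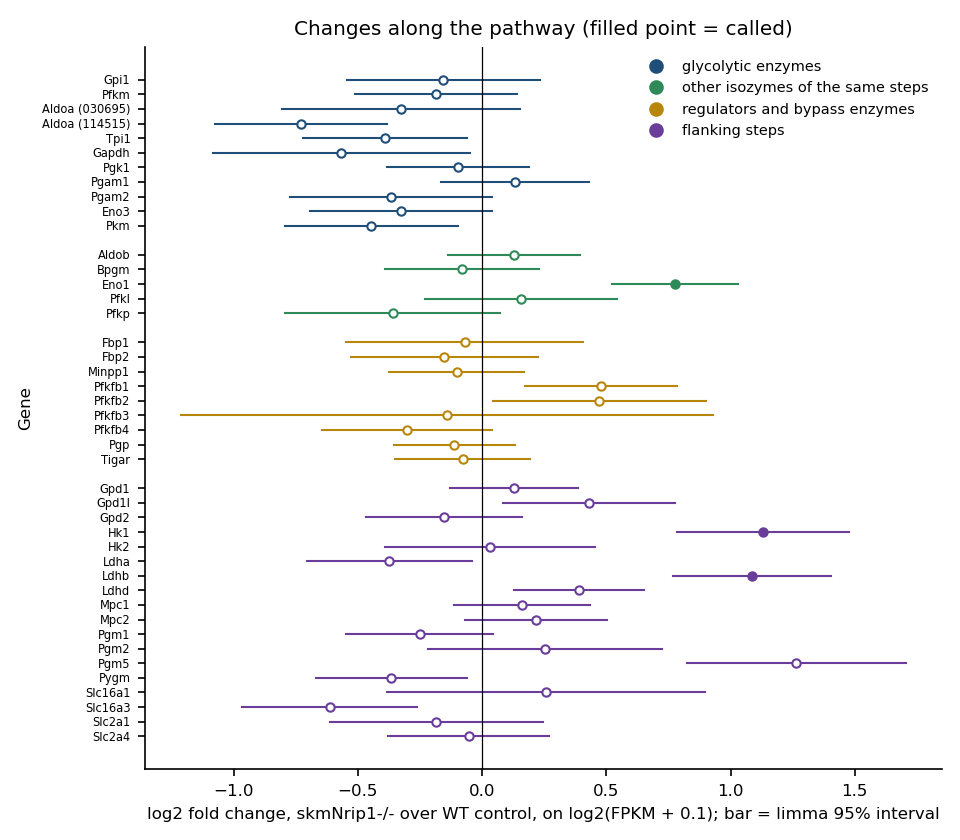
Log2 fold change of skmNrip1-/- over WT control on log2(FPKM + 0.1), with limma 95% intervals, for the 11 glycolytic entries and the tested genes of 3 related lists. Filled points mark called genes, which are Eno1, Hk1 and Ldhb, and 10 of 11 glycolytic entries lie left of 0 without a call.

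The genes whose profile over the 5 libraries was nearest to the median profile of the enzymes were Ldha, Dusp13, Ubb, Bsg and Aes. They were taken from the 1252 genes that averaged 50 FPKM or more, by the root mean square distance of centered log2 values, which ran from 0.041 to 0.0473. Ldha was at 2237, 1926 and 2042 FPKM in WT control and at 1691 and 1502 FPKM in skmNrip1-/- (log2 fold change -0.37, limma adjusted p = 0.363). Bsg, which encodes the partner protein of lactate transporters at the cell surface, was at 480, 379 and 427 FPKM against 378 and 325.0 FPKM. With 5 libraries in 2 groups, many genes can come close to such a profile.

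Fast fiber markers leaned the same way as the enzymes. Of 12 fast fiber markers, 11 had a log2 fold change below 0 and 7 had both skmNrip1-/- libraries below all WT control libraries, with a median of -0.29, 0 calls by limma and 3 lower at an unadjusted p of 0.05. Their summed FPKM was 91725 to 127721 in WT control and 83781 to 87055 in skmNrip1-/-. The lowest was Actn3, the alpha-actinin of fast fibers (log2 fold change -0.77, limma adjusted p = 0.169), and the highest was Myh1, the myosin heavy chain of type 2X fibers (0.049, limma adjusted p = 0.954). On TPM, Actn3 was called at -1.07 and Myh1 turned to -0.25. Set against the fast marker sum, the enzyme sum was 33.1%, 36.3% and 38.8% in WT control and 35.5% and 32.9% in skmNrip1-/-, with overlapping groups. The 12 slow and oxidative fiber markers summed to 5515 to 7504 FPKM in WT control and to 9184 and 9221 FPKM in skmNrip1-/-. Most of this sum was myoglobin (Mb), at 4522, 4329 and 5157 FPKM in WT control and at 7764 and 7664 FPKM in skmNrip1-/-. Of the 12 markers, 7 had a log2 fold change above 0 and 5 below, with a median of 0.10. There were 0 calls by limma, and values ran from -1.24 for Myl3 to 3.46 for Myl2. At an unadjusted limma p of 0.05, 2 were higher and 1 lower, against 798 and 647 of all 12148 tested genes. Myl3 was at 89.6, 124 and 285 FPKM in WT control and at 54.1 and 71.3 FPKM in skmNrip1-/-. Myl2 was at 2.03, 1.85 and 9.68 FPKM against 42.1 and 33.6 FPKM. WT control replicate 3 stood apart from the other WT control libraries in both genes. For scale, 202 other tested nuclear genes, those that averaged 300 FPKM or more, had a median of 0.038, with 87 below 0.

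Markers of other cell types were found in every library, and no marker gene was listed at 0 in all 5. Blood genes summed to 511 to 764 FPKM in WT control and to 827 and 996 FPKM in skmNrip1-/-, with all 5 above 0, from 0.37 for Alas2 to 0.55 for Hbb-bt. Endothelial genes summed to 127 to 139 FPKM against 117 and 121 FPKM, with 6 of 8 below 0, from -0.30 for Vwf to 0.072 for Kdr. The sums overlapped between groups for adipocyte genes (133 to 202 against 158 and 163 FPKM, Plin1 lowest at -0.36 and Cfd highest at 0.15) and for macrophage and leukocyte genes (13.3 to 23.5 against 16.3 and 20.1 FPKM, Cd68 lowest at -0.068 and Csf1r highest at 0.059). They also overlapped for fibroblast genes (161 to 233 against 189 and 256 FPKM, Pdgfra lowest at -0.0070 and Col1a1 highest at 0.18) and for nerve and Schwann cell genes (19.0 to 27.2 against 26.4 and 28.5 FPKM, Ncam1 highest at 1.75). Of the 4 tested nerve and Schwann cell genes, 3 were below 0, and the median was -0.17. Ncam1 was at 4.60, 1.33 and 1.90 FPKM in WT control and at 4.35 and 14.2 FPKM in skmNrip1-/-, so its value rests on skmNrip1-/- replicate 2. Skeletal muscle genes, of which Myh4, Mylpf and Tnnt3 are also among the fast fiber markers, had all 7 values below 0, from -0.40 for Acta1 to -0.029 for Ttn, with sums of 62294 to 86251 FPKM against 57686 and 59739 FPKM. No marker was called under the deposited scaling, and the part of fiber type, blood or mitochondrial transcripts in the lower enzyme values was not tested.

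**Figure D5:**
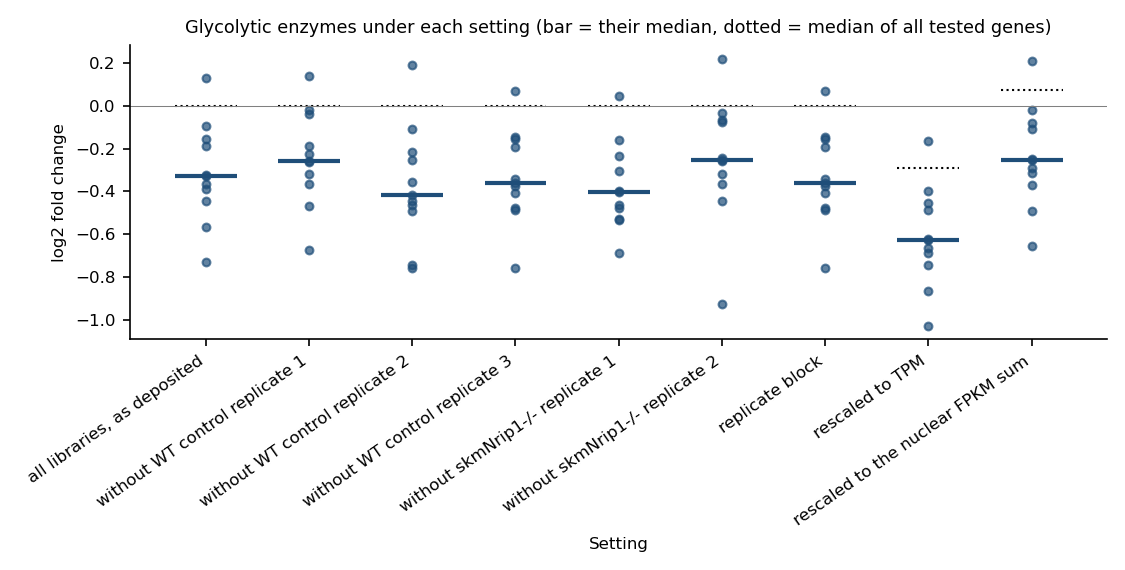
Log2 fold changes of the 11 entries with all libraries, without each library in turn, with the replicate number as a block, and after rescaling to TPM or to the nuclear FPKM sum. Solid bars are the medians of the entries, from -0.63 to -0.25, and dotted bars the medians of all tested genes, which rescaling to TPM moves to -0.29.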

How the data were processed

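RNA of 5 TA muscles was sequenced as paired-end reads, and libraries were grouped by their labels (3 WT control, 2 skmNrip1-/-). The submitters' processing notes name Salmon 1.10.2 and DESeq2 1.44.0, and the study's methods give the mm10 reference and tximport. Gene-level FPKM were deposited by the authors, 1 column a library. How they were computed and from which annotation release is not given in the sources used here. The authors also deposited log2 fold changes and p-values of their own DESeq2 comparison, which were not used.

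FPKM are not counts, so log2(FPKM + 0.1) was fitted by limma 3.58.1 (R 4.3.3, lmFit and eBayes with trend) with all 5 libraries and no covariates. Genes averaging 0.5 FPKM or more (12148) entered, and p-values were adjusted after Benjamini-Hochberg. A fold change on this scale understates the change of low genes. Calls used the study's thresholds (adjusted p of 0.05, fold change of 1.2). P-values measure the spread between these libraries. Only the limma fit was tested on simulated data, in which genes varied independently of each other, unlike the entries here. Positions, transcripts and shared 31-base words came from GENCODE M21 (GRCm38), in which 17008 of 17015 gene IDs were found. Promoters were RefSeq's (GRCm38.p6). For 12 of the 16 promoters of members, bases just after the start were found in a GENCODE transcript of that gene. The RefSeq starts of Pgam1 and Pgam2 used here lie upstream of their GENCODE spans. Other steps used Python 3.11.15, pandas 2.3.3, numpy 2.4.6 and matplotlib 3.10.9.

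The members, the gene lists and the rule for named genes were chosen with earlier results of these data known. The rule names all members, Nrip1, each called gene and the highest and lowest gene of each list, called pseudogenes of members, and the 5 genes of nearest profile. A gene that meets this rule is not reported here. The slow and fast fiber, muscle, blood, endothelium, adipocyte, leukocyte, nerve and fibroblast lists are standard markers. The study gives 3 mice per group, and 2 skmNrip1-/- libraries were analysed here.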

Additional observations from a re-analysis of the deposited data

How the results depend on the processing

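The alternatives were pseudocounts of 0.01 and 1, no minimum or a minimum of 1 FPKM, rescaling to TPM or by median ratios, eBayes robust or without trend, other thresholds, Aldoa summed over its IDs, the replicate number as a block, leaving out each library and, chosen after seeing the data, rescaling to the nuclear FPKM sum. The glycolytic entries had 0 calls under all of these except TPM, with 1 lower (calls were not made with Aldoa summed), and their median stayed below 0, at -0.63 on TPM and from -0.42 to -0.25 with a library left out. Over all genes, higher calls (45) became 22 without trend, 18 with the block, 29 on TPM and 81 at an adjusted p of 0.1, and ran from 6 to 51 with a library left out. The lower calls (10) became 3, 4, 59 and 23 under the same settings, and ran from 2 to 15. The lowest higher count was without skmNrip1-/- replicate 2 and the lowest lower count without WT control replicate 3. On TPM the median of all genes was -0.29, so the split between higher and lower calls depends on the scaling.

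The call of Eno1 among the other isozymes (1 higher) went to 0 without trend, without a minimum, with a pseudocount of 0.01, with the block, on TPM and with any library left out (0 to 0). The calls of Hk1 and Ldhb (2 higher) went to 0 without trend, with the block and on TPM, to 1 without a minimum and on the nuclear sum, and to 0 to 1 with a library left out. The count rose to 3, with Pgm5, under robust eBayes, a minimum of 1 FPKM, a pseudocount of 1 and an adjusted p of 0.1. Nrip1 and Pgam1-ps2 were each called in 2 of the 5 fits without a library. Nrip1 was also lost without trend (limma adjusted p = 0.0769) and with the block (0.128), and Pgam1-ps2 with the block (0.102) and a pseudocount of 0.01 (0.113). The cause of these changes was not tested.

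Libraries with the same replicate number come from different mice, and the labels name nothing else that they share. Their deviations correlated at 0.065 and 0.095 over genes. With 2 skmNrip1-/- libraries the deviations are exact opposites, so the crossed pairs had to give -0.065 and -0.095. WT control replicate 3 has no partner. The block therefore gave the same log2 fold changes as leaving that library out, with a members' median of -0.36.

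Values that changed sign were all uncalled. On TPM these were Pgam1 (-0.16), Myh1 (-0.25), Kdr (-0.22), Cfd (-0.15), Csf1r (-0.23) and Col1a1 (-0.11). On the nuclear sum they were Ttn (0.046), Cd68 (0.0024) and Pdgfra (0.067). With the block they were Kdr (-0.094), Cd68 (0.26) and Pdgfra (0.23). With a library left out, Myh1 ran from -0.11 to 0.16, Ttn from -0.058 to 0.0085, Kdr from -0.094 to 0.32, Cfd from -0.11 to 0.31, Cd68 from -0.40 to 0.27, Csf1r from -0.33 to 0.40, Pdgfra from -0.32 to 0.23 and Col1a1 from -0.62 to 0.99.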
